A study of Mus musculus with 15 samples.

Results

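Semaphorins, the plexins and neuropilins that receive them, and the plexin domain-containing proteins Plxdc1 and Plxdc2 were followed through the stretch of cultured mouse podocytes. Members were taken by symbol from the deposited gene table, and 33 of its 55416 genes fitted: 7 secreted semaphorins of class 3, 13 membrane-bound semaphorins of classes 4 to 7, 9 plexins, 2 neuropilins and 2 plexin domain-containing genes. The cells were SVI, a conditionally immortalised mouse podocyte line, differentiated and grown on flexible silicone membranes that pressure can move up and down. Podocytes are the epithelial cells whose interlocking foot processes cover the kidney's filtering capillaries, and the stretch served as a model of glomerular hypertension. Experiment 1 held 3 unstretched and 6 low-stretch samples, with a membrane deflection labelled 5 to 6 mm. Experiment 2 held 3 unstretched and 3 high-stretch samples, labelled 7 to 8 mm. All 15 samples came from this 1 cell line, so no group differed in genotype, and the labels give no duration of stretch. Stretch amplitude and experiment were the same split, so each stretched group was compared with unstretched cells of the same experiment. The labels do not say that replicates were separate cultures, so the p-values measure the spread between these samples, which may be technical.

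Semaphorins are guidance proteins first known from growing axons. A semaphorin binds a plexin, whose cytoplasmic tail acts on small GTPases and so on integrin adhesion and actin. Most class 3 semaphorins are secreted proteins that reach A-type plexins through a neuropilin as co-receptor. Neuropilins also bind forms of vascular endothelial growth factor. In the glomerulus podocytes are a known source of Sema3a and of Vegfa, and excess Sema3a is known to disturb the slit diaphragm between foot processes.

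Each sample held between 172211836 and 396658285 counts. Unstretched replicate 3 of experiment 2 stood apart from its group, with 2.60% of its counts on mitochondrial genes against 1.15% and 1.56% in the other 2 replicates. The well codes in the labels place neighbouring samples together. In experiment 1 they form 3 runs of 1 unstretched and 2 low-stretch samples (replicate 1 with low-stretch replicates 1 and 2, 2 with 3 and 4, 3 with 5 and 6), and in experiment 2 they form 3 runs of 1 unstretched and 1 high-stretch sample. The labels do not call these plate runs a batch. In experiment 1, samples of a run deviated from their group means together, with a correlation across genes of 0.33 to 0.57 for each pair. In experiment 2 the pairs of a run did not do so throughout, with correlations of −0.16 to 0.45. Values are given as CPM, counts scaled to the library size, for comparing 1 gene between samples, and as TPM, the authors' length-scaled transcript abundances summed over a gene's transcripts, for comparing genes with each other. A gene was called where the edgeR quasi-likelihood test gave a Benjamini-Hochberg adjusted p under 0.05 over all genes tested.

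The line expressed a broad set of both ligands and receptors. In TPM, 23 of the 33 members reached a mean of at least 1 in every group and 9 stayed under 1 in every group. The ligand Sema3f (mean 227 TPM over the 15 samples) and the receptors Plxnb2 (225 TPM) and Plxna1 (143 TPM) led the order, followed by Sema3a at 74.2, Plxnd1 at 37.9, Nrp1 at 35.2, and Nrp2 and Plxdc2 at 29.6 each. Of the membrane semaphorins, Sema5a (27.9 TPM), Sema7a (24.5 TPM) and Sema4c (20.0 TPM) were highest. Plxna4, Plxnb3, Plxnc1, Sema6d and Sema4f were all at or under 0.0707 TPM in every group mean. Ranks in the middle of this order depended on the group. Sema3a stood at 165 TPM in unstretched cells of experiment 1 and at 33.3 TPM in those of experiment 2. Nrp1 and Nrp2 stood at 21.0 and 32.2 TPM in unstretched cells of experiment 1, where their ranges over the 3 samples met, and at 6.63 and 26.1 TPM in those of experiment 2, where Nrp1 was below Nrp2 in each sample.

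**Figure D1:**
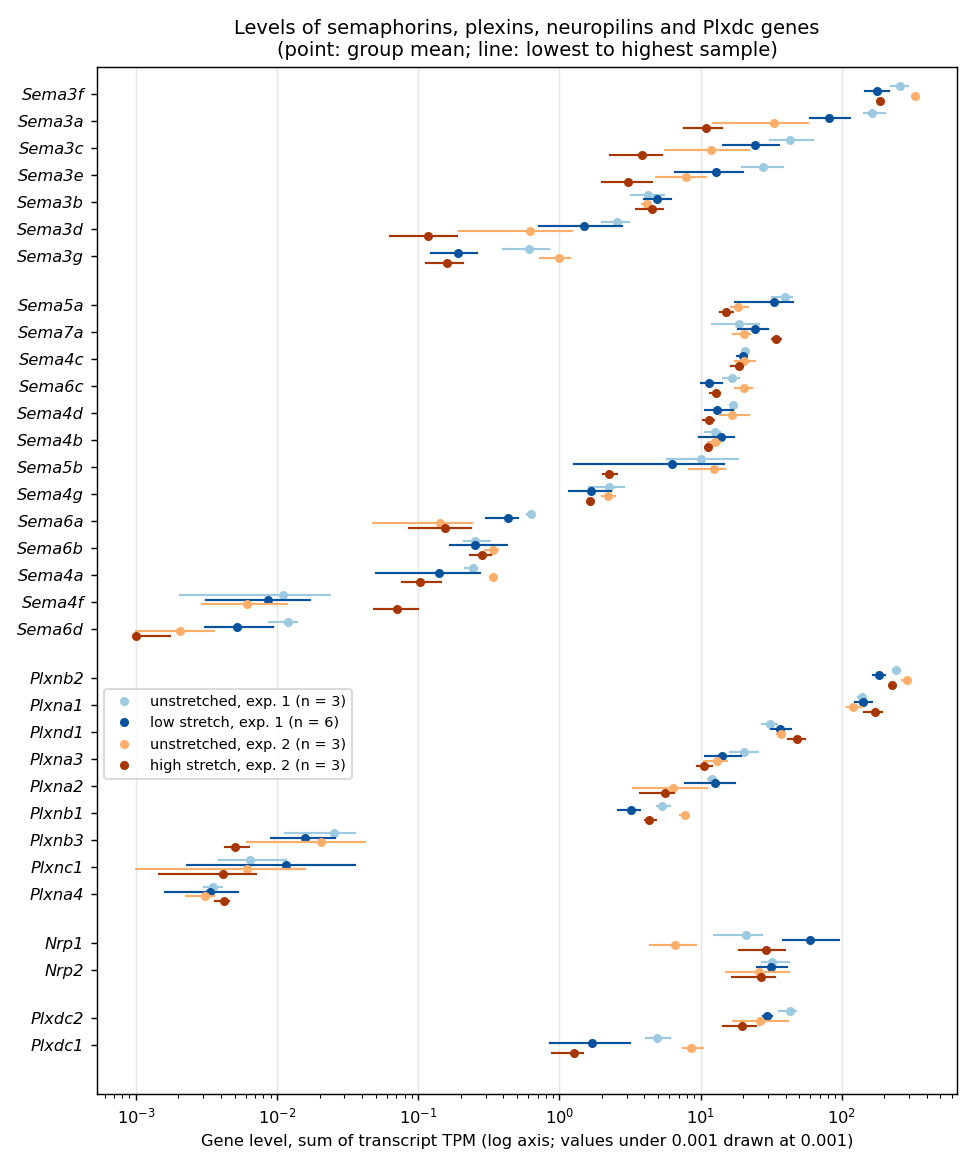
Mean TPM, summed over the transcripts of each gene, on a log axis for the 33 members in the 4 groups; points are group means and lines run from the lowest to the highest sample, with values under 0.001 drawn there. Sema3f, Plxnb2 and Plxna1 lie highest, and Plxna4 and Sema6d lowest.

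Stretch moved members of the set in both experiments, mostly downward. Under low stretch 30 of the 33 members passed the filter on low counts, and 9 of these were called, against 5.45% of all genes tested. Nrp1 was higher (1.85% of all genes were called higher) and 8 were lower (3.6% of all genes): Sema3a, Sema3f, Sema3g, Sema6c, Plxnb1, Plxnb2, Plxdc1 and Plxdc2. Under high stretch 29 members passed the filter and 5 were called, against 3.47% of all genes. Nrp1 was higher (1.31% of all genes) and Sema3g, Sema4a, Sema5b and Plxdc1 were lower (2.16% of all genes). Nrp1, Sema3g and Plxdc1 were called in both comparisons. DESeq2 called 12 members under low stretch (2 higher, 10 lower), against 11.4% of all genes (5.22% higher, 6.22% lower), and 12 under high stretch (4 higher, 8 lower), against 6.03% (2.47% and 3.56%). Stretched and unstretched samples did not overlap in CPM for 11 tested members under low stretch (2 higher, 9 lower). Over all genes this held for 15.3% (7.81% and 7.47%). Under high stretch it held for 14 members (4 higher, 10 lower), against 20.6% of all genes (9.97% and 10.7%). Of those 4, Sema4f passed the filter only through its high-stretch samples, so it had to differ there to be counted. The median log2 fold change of the members was −0.33 under low and −0.28 under high stretch, against 0.01 and −0.02 over all genes tested. The counts rested on single libraries: without unstretched replicate 3 of experiment 1 edgeR called 0 members under low stretch (10 with an unadjusted p under 0.05, and 220 genes called in all), and it called 0 under high stretch without high-stretch replicate 3 (12 with an unadjusted p under 0.05, and 14 genes called in all). Leaving out unstretched replicate 3 of experiment 2, the library that stood apart, gave 13 of 29 members called under high stretch, against 7.77% of all genes. Sema4f was among these 13.

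**Figure D2:**
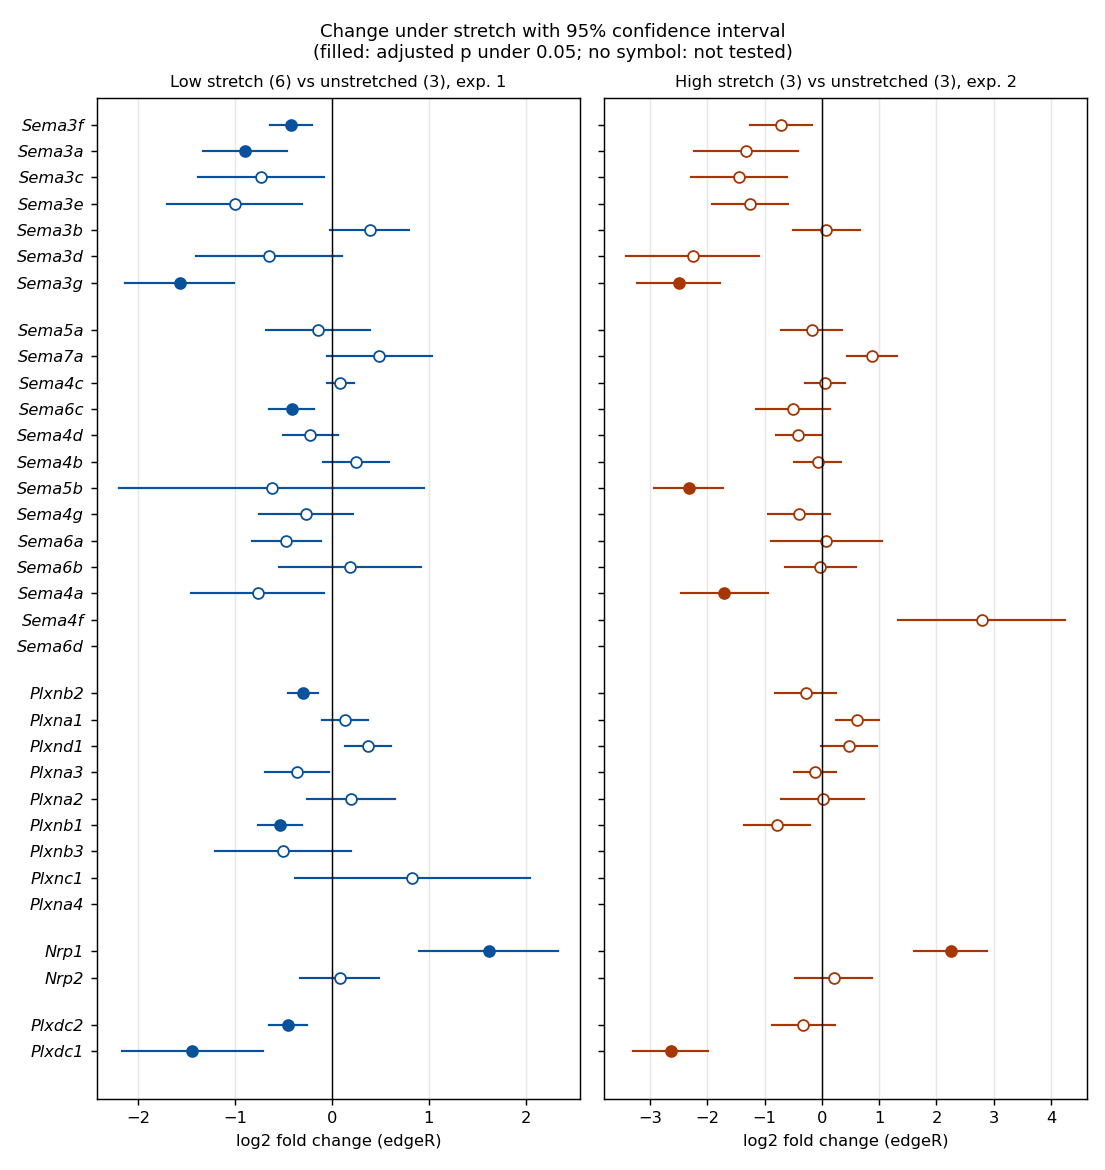
Log2 fold change of each tested member against the unstretched samples of its experiment, low and high stretch side by side, with 95% confidence intervals from edgeR and filled points where the adjusted p was under 0.05. Nrp1 is the called gene above 0 in both comparisons, and Sema3g and Plxdc1 are called below 0 in both.

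Markers of podocytes and of other cell types were read beside the members. The labelled cell type was borne out in part: of 10 podocyte markers Synpo measured 256 to 837 CPM, Wt1 0.437 to 6.12 CPM and Nphs1 1.00 CPM or less, and Tcf21 had at most 1 count a sample. Wt1 averaged 5.05 CPM unstretched and 2.28 CPM under low stretch (log2 −1.16, edgeR adjusted p = 0.0688), and it fell from 2.81 to 0.545 CPM under high stretch (log2 −2.36, adjusted p = 0.0311). The 6 leukocyte markers summed to 23.5 to 26.3 CPM in unstretched and 5.94 to 13.2 CPM in stretched samples over both experiments. Csf1r carried that sum and fell in both comparisons (log2 −1.51 and −2.02, edgeR adjusted p = 0.00739 and 0.00808), while Itgam and Cd3e had at most 2 counts a sample and Ptprc at most 17. Cd68, a macrophage marker, had log2 fold changes of −0.12 and 0.86 (adjusted p = 0.617 and 0.165). The 6 tubular markers summed to 943 to 1372 CPM in unstretched and 324 to 803 CPM in stretched samples, with Umod, Aqp2 and Slc34a1 at 3 counts or fewer. Lrp2 and Aqp1 carried that sum. Lrp2 was called lower under low but not high stretch (log2 −0.65 and −0.39, edgeR adjusted p = 0.0227 and 0.733). Aqp1 was called lower under high but not low stretch (log2 −3.62 and −1.85, adjusted p = 0.0135 and 0.133). Slc12a1 had log2 fold changes of 0.69 under low and 0.24 under high stretch (adjusted p = 0.0852 and 0.930). The 7 endothelial markers summed to 45.02 to 47.20 CPM in unstretched and 27.1 to 35.7 CPM in low-stretch samples, and to 70.6 to 83.0 and 42.6 to 54.9 CPM in experiment 2. Ehd3 carried that sum, and Cdh5, Emcn and Tie1 were at or near 0. The 7 mesangial or stromal markers summed to 1270 to 2009 CPM in unstretched and 1517 to 3949 CPM in low-stretch samples, and to 2560 to 7235 and 6546 to 10500.3 CPM in experiment 2, and the groups overlapped in both. Acta2 carried that sum but was not called (log2 0.86 and 0.98, adjusted p = 0.136 and 0.269), and Pdgfrb fell under low stretch (log2 −0.56, adjusted p = 0.0199). Of the 3 parietal epithelial markers Cldn2 fell under high stretch (log2 −2.33, edgeR adjusted p = 0.00641). Under low stretch it was not called (log2 −0.93, adjusted p = 0.370). Pax8, the most abundant of the 3, had log2 fold changes of 0.24 and −0.08 (adjusted p = 0.260 and 0.917). Cldn1 had −0.66 and −0.87 (adjusted p = 0.0962 and 0.533). The 3 proliferation markers summed to 561 to 875 CPM in unstretched and 501 to 795 CPM in low-stretch samples. In experiment 2 they summed to 388 to 510 and 330 to 451 CPM, and edgeR called 0 in either comparison. Between unstretched cells of experiments 1 and 2, Mki67 averaged 297 and 72.0 CPM, Top2a 308 and 109 CPM, and Cdk1 165 and 248 CPM. The part of these markers in the members' changes was not tested. In bulk samples, fewer cells of a type and less RNA per cell cannot be told apart.

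The 2 neuropilins parted under stretch: Nrp1 was called higher in both experiments and Nrp2 in neither. Nrp1, the co-receptor for Sema3a and for vascular endothelial growth factor, measured 48.6, 42.2 and 22.9 CPM in the 3 unstretched samples of experiment 1, and ran from 73.7 over a median of 109 to 189 CPM in the 6 low-stretch samples. In experiment 2 it measured 13.1, 20.5 and 19.7 CPM unstretched and 103, 61.5 and 85.0 CPM under high stretch. The groups did not overlap in either experiment, and each of the 9 stretched samples lay above the unstretched sample of its own plate run, by 2.40 to 3.88 times under low and 2.99 to 7.87 times under high stretch. Nrp1 rose 3.07-fold under low stretch (log2 1.62, SE 0.33, adjusted p = 0.0195) and 4.75-fold under high stretch (log2 2.25, SE 0.28, adjusted p = 0.00808). It was called in 8 of the 9 low-stretch fits that left out 1 sample (adjusted p = 0.0861 without unstretched replicate 3) and in 5 of 6 high-stretch fits (adjusted p = 0.0619 without high-stretch replicate 3).

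Nrp2, the neuropilin that prefers Sema3f and the lymphatic growth factors, was not called in either comparison. It measured 89.6, 92.4 and 142 CPM unstretched and 91.0 to 150 CPM under low stretch, and 112, 91.0 and 168 CPM unstretched against 161, 99.3 and 163 CPM under high stretch. Groups overlapped in both experiments. Its log2 fold change was 0.08 under low stretch (95% interval −0.33 to 0.49, edgeR adjusted p = 0.821) and 0.21 under high stretch (−0.47 to 0.88, adjusted p = 0.882). On the TPM scale the ratio of Nrp1 to Nrp2 was 0.298 to 1.01 in unstretched and 1.41 to 2.32 in low-stretch samples of experiment 1, and 0.211 to 0.410 in unstretched and 0.964 to 1.18 in high-stretch samples of experiment 2. Nrp1 thus exceeded Nrp2 in all 6 low-stretch samples, and the ratio ranges of stretched and unstretched samples did not meet in either experiment.

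Class 3 semaphorins, the secreted ligands of the neuropilins, were 7 members that all passed the filter in both comparisons. Under low stretch 3 of 7 fell (Sema3a, Sema3f, Sema3g), against 3.6% of all genes called lower, and under high stretch 1 of 7 fell (Sema3g), against 2.16%. DESeq2 called 4 lower under low stretch, against 6.22% of all genes, and 5 lower under high stretch, against 3.56%. In both comparisons 6 of the 7 estimates were below 0, against 49.0% of all genes tested under low and 52.4% under high stretch. The median log2 fold change of the 7 was −0.73 under low and −1.32 under high stretch. Summed over the class, TPM was 435 to 604 in unstretched and 240 to 394 in low-stretch samples, and 348 to 425 in unstretched and 207 to 212 in high-stretch samples.

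Sema3g, a class 3 semaphorin known from podocytes and endothelium, was called lower in both experiments. It measured 1.35, 0.943 and 2.00 CPM unstretched against 0.323 to 0.633 CPM (median 0.468) under low stretch, and 4.02, 3.08 and 3.26 CPM unstretched against 0.372, 0.667 and 0.778 CPM under high stretch. Neither pair of groups overlapped. These levels rest on 92 to 895 counts a sample. Sema3g fell 2.97-fold under low stretch (log2 −1.57, SE 0.26, edgeR adjusted p = 0.00899) and 5.65-fold under high stretch (log2 −2.50, SE 0.31, adjusted p = 0.00847). As with Nrp1, the calls were lost without unstretched replicate 3 of experiment 1 (adjusted p = 0.0545) and without high-stretch replicate 3 (adjusted p = 0.0609).

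Sema3a, the ligand whose collapse of growth cones gave the family its first name, measured 283, 294 and 409 CPM unstretched and 131 to 248 CPM (median 163) under low stretch, with no overlap. It fell 1.87-fold (log2 −0.90, SE 0.19, edgeR adjusted p = 0.0270), and the call held in 4 of 9 fits that left out 1 sample (highest adjusted p = 0.156). In experiment 2 it measured 82.4, 40.1 and 128 CPM unstretched and 37.8, 26.2 and 35.2 CPM under high stretch. These groups did not overlap either, but the unstretched samples were spread widely and the test missed the threshold (log2 −1.32, SE 0.39, adjusted p = 0.138).

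Sema3f, the most abundant ligand, measured 286, 255 and 315 CPM unstretched and 186 to 242 CPM (median 213) under low stretch. It fell 1.34-fold there (log2 −0.42, SE 0.10, edgeR adjusted p = 0.0363), with no overlap, and kept its call in 3 of 9 fits without 1 sample. In experiment 2 it measured 703, 704 and 447 CPM unstretched and 298, 443 and 368 CPM under high stretch, a log2 fold change of −0.72 (SE 0.24, adjusted p = 0.179). Unstretched replicate 3, the library that stood apart, gave the lowest unstretched value, just above the highest stretched one.

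Sema3c, Sema3d and Sema3e, ligands known from heart, vessel and neural development, missed the threshold in both comparisons. Sema3c measured 97.3, 84.5 and 175 CPM unstretched and 42.5 to 103 CPM under low stretch (log2 −0.73, adjusted p = 0.162), then 34.2, 23.0 and 60.8 CPM unstretched and 16.7, 11.4 and 14.7 CPM under high stretch (log2 −1.45, adjusted p = 0.0788). Sema3e, which can bind Plxnd1 without a neuropilin, measured 60.4, 78.0 and 121 CPM against 22.4 to 65.4 CPM under low stretch (log2 −1.01, adjusted p = 0.0884), and 38.8, 25.5 and 39.5 CPM against 19.2, 10.8 and 12.8 CPM under high stretch (log2 −1.25, adjusted p = 0.0590). Sema3d measured 1.97, 1.16 and 4.22 CPM unstretched and 0.688, 0.376 and 0.456 CPM under high stretch (log2 −2.26, SE 0.51, adjusted p = 0.0539). All 3 genes had stretched and unstretched groups that overlapped under low stretch and did not overlap under high stretch. Sema3b, the remaining class 3 ligand, lay between 3.73 and 9.68 CPM in all 15 samples, with log2 fold changes of 0.39 (95% interval −0.02 to 0.79) and 0.08 (−0.51 to 0.66).

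Plate runs divided experiment 1 for the class 3 ligands other than Sema3b. In run 3 those ligands were higher in unstretched replicate 3 and low-stretch replicates 5 and 6 than in the other runs. Sema3c measured 175 CPM unstretched and 103 CPM in both stretched samples there. In runs 1 and 2 it measured 84.5 to 97.3 CPM unstretched and 42.5 to 68.8 CPM stretched. Sema3b in unstretched replicate 3 was lower, at 3.73 CPM against 6.02 and 4.65 CPM in runs 1 and 2. Each low-stretch sample lay below the unstretched sample of its own run for Sema3a, Sema3c, Sema3d, Sema3e, Sema3f and Sema3g. With the plate run as a block in the edgeR fit, these 6 of 7 class 3 genes were called lower under low stretch, with Sema3a at adjusted p = 8.61e-05, Sema3e at 0.00029, Sema3c at 0.000694 and Sema3d at 0.0114. That fit called 18 of 30 members (4 higher, 14 lower), against 28.2% of all genes (13.7% higher, 14.5% lower).

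The promoters of 4 of these genes are printed, those of Nrp1 and of 3 class 3 ligands, of which Sema3g was called lower in both comparisons and Sema3c and Sema3e in neither without a block. Each is the 250 bases before the gene's listed start in RefSeq, on the GRCm38.p6 build and read 5′ to 3′ on the plus strand, at chr8:128358823-128359072 for Nrp1, chr14:31217623-31217872 for Sema3g, chr5:17574566-17574815 for Sema3c and chr5:14025026-14025275 for Sema3e. Capitals mark GC boxes, the letters GGGCGG or their reverse complement CCGCCC.
Nrp1: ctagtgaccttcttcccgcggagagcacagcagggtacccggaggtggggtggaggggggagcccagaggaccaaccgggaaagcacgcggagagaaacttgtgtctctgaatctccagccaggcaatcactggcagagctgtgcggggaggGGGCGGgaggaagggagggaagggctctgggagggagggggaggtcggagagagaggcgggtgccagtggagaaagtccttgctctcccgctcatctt
Sema3g: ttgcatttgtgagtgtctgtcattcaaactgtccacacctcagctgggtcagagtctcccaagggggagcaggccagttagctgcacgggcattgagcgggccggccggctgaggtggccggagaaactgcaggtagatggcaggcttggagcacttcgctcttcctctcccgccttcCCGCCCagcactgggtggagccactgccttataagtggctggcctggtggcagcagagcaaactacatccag
Sema3c: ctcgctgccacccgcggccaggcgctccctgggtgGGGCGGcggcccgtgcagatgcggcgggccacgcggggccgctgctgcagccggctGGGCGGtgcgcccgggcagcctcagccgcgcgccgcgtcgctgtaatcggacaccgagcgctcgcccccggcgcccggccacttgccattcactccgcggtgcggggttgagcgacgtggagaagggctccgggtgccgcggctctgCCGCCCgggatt
Sema3e: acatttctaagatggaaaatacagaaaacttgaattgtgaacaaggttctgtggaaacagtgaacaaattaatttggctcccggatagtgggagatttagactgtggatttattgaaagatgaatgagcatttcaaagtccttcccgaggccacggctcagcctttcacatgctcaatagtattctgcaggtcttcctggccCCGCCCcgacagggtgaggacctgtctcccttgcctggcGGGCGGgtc
Nrp1 and Sema3g hold 1 GC box each, Sema3c holds 3 and Sema3e 2. The windows listed for Sema3a, at a start inside the gene, and for Sema3d hold 0 (GC content 40.8% and 46.8%) and are not printed, while 32.7% of the 32851 promoters in the table hold at least 1. GC content was 64.4% for Nrp1, 60.4% for Sema3g, 78.4% for Sema3c and 48.0% for Sema3e. None of the 4 windows holds an AP-1 site (TGANTCA, found in 6.75% of all promoters), a TEAD site (GGAATG or CATTCC, 12.6%) or a CArG box (1.47%), searched on both strands. A match is a description of letters and not a binding site. Over the whole set, 26 of the 33 genes matched an entry, with 37 promoters between them. Of these 37, 27 hold a GC box, 3 an AP-1 site, 3 a TEAD site and 1 a CArG box. Their median GC content was 64.0%, against 52.4% over all 32851 promoters, and its part in the GC box count was not tested.

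Several class 3 genes are neighbours in the genome, in RefSeq's annotation of the same build. On chromosome 5 Sema3d, Sema3a, Sema3e and Sema3c follow one another in that order, with 18 other protein-coding genes between the outer pair. Only 3 of those 18 passed the low-count filter, and 0 were called in either comparison by edgeR (2 had an unadjusted p under 0.05 in each). The log2 fold changes under low and high stretch were −0.06 and −0.05 for the calcium channel subunit gene Cacna2d1, 1.93 and 2.10 for Speer3, and 1.43 and 1.73 for Gm6650 (adjusted p from 0.0734 to 0.984, none called). Sema3b and Sema3f lie on chromosome 9 and Sema3g on chromosome 14.

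Membrane semaphorins, which act on cells in contact, were 13 members. By edgeR 1 of 11 tested fell under low stretch (3.6% of all genes) and 2 of 12 fell under high stretch (2.16%). In both comparisons 0 rose (1.85% and 1.31% of all genes). DESeq2 called 0 higher and 2 lower under low stretch, against 5.22% and 6.22% of all genes. Under high stretch it called 2 higher and 2 lower, against 2.47% and 3.56%. Sema5b, a transmembrane semaphorin with thrombospondin repeats, measured 50.8, 30.7 and 35.8 CPM unstretched and 6.41, 9.70 and 6.98 CPM under high stretch. The groups were far apart, and Sema5b fell 5.02-fold (log2 −2.33, SE 0.26, edgeR adjusted p = 0.00641). In experiment 1 its values followed the plate runs: 12.2 and 11.8 CPM unstretched and 2.91 to 7.01 CPM stretched in runs 1 and 2, but 35.2 CPM unstretched and 29.1 and 27.7 CPM stretched in run 3. The low-stretch estimate was −0.62 (SE 0.71, adjusted p = 0.633), and 0.08 without unstretched replicate 3. With the plate run as a block it was −0.96 (adjusted p = 0.0135).

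Sema4a, a membrane semaphorin known from immune cells, was called lower under high stretch at a very low level: 0.438, 0.289 and 0.404 CPM unstretched and 0.0890, 0.113 and 0.141 CPM stretched (log2 −1.70, SE 0.33, edgeR adjusted p = 0.0345). The call held in 2 of 6 fits without 1 sample. Under low stretch Sema4a measured 0.233, 0.196 and 0.236 CPM unstretched and 0.0735 to 0.20 CPM stretched (log2 −0.77, adjusted p = 0.168). A microRNA gene overlaps an exon of Sema4a on the same strand, and another overlaps one of Nrp1.

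Sema6c, a class 6 semaphorin that acts through A-type plexins, measured 14.5, 12.5 and 14.9 CPM unstretched and 9.58 to 12.1 CPM (median 9.95) under low stretch. It fell 1.34-fold (log2 −0.42, SE 0.10, adjusted p = 0.0434), with groups that did not overlap, and kept its call in 2 of 9 fits without 1 sample. Under high stretch it had the same direction at −0.51 (SE 0.28, adjusted p = 0.501).

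Sema7a, the lipid-anchored semaphorin that signals through integrins and Plxnc1, lay higher in every stretched sample than in the unstretched sample of its run, without passing the threshold. It measured 29.8, 43.6 and 20.1 CPM unstretched and 31.9 to 56.1 CPM (median 47.8) under low stretch (log2 0.49, SE 0.25, edgeR adjusted p = 0.260). In experiment 2 it measured 44.9, 61.0 and 43.2 CPM unstretched and 79.4, 92.3 and 97.2 CPM under high stretch, with no overlap (log2 0.87, SE 0.19, adjusted p = 0.0508). With the plate run as a block its low-stretch p was 0.00165. Its receptor Plxnc1 was nearly absent, at 0.0681 CPM or less in all 15 samples.

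Among the other membrane semaphorins, Sema5a and Sema4c were the most abundant on the TPM scale. Sema5a had log2 fold changes of −0.14 (95% interval −0.68 to 0.39) and −0.18 (−0.71 to 0.35). Sema4c, a ligand of Plxnb2, was the steadiest: its log2 fold changes were 0.09 (95% interval −0.05 to 0.22) and 0.05 (−0.30 to 0.40). With the plate run as a block, Sema4b and Sema6a were also called under low stretch, at 0.23 (adjusted p = 0.0245) and −0.47 (adjusted p = 0.0298). Sema4f, at 0.0815 CPM or less in the unstretched samples of experiment 2, reached 0.255, 0.206 and 0.222 CPM under high stretch (log2 2.79, SE 0.64, adjusted p = 0.0566). It passed the filter only in experiment 2 through those samples, which hold 29 to 63 counts, so it had to differ there to be tested at all. Sema4d, Sema4g and Sema6b were not called in either comparison, and Sema6d was under the filter in both.

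Plexins, the signalling receptors, were 9 members, of which 8 were tested under low and 6 under high stretch. Plxnb1 and Plxnb2 fell under low stretch, where edgeR called 3.6% of all genes lower. Under high stretch 0 plexins passed the test, against 3.47% of all genes. There 2 had an unadjusted p under 0.05 and DESeq2 gave Plxna1 an adjusted p of 0.0366. Plxnb2, the most abundant receptor of the set and the receptor of class 4 semaphorins and angiogenin, measured 660, 726 and 688 CPM unstretched and 536 to 587 CPM (median 561) under low stretch. The groups did not overlap, and Plxnb2 fell 1.23-fold (log2 −0.30, SE 0.07, edgeR adjusted p = 0.0349), a call kept in 1 of 9 fits without 1 sample. In experiment 2 it measured 1368, 1552 and 916 CPM unstretched and 882, 1177 and 1051 CPM under high stretch, so the groups overlapped through unstretched replicate 3 (log2 −0.28, 95% interval −0.81 to 0.25, adjusted p = 0.720).

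Plxnb1, the receptor of Sema4d, measured 18.0, 18.3 and 23.1 CPM unstretched and 12.4 to 16.2 CPM (median 13.4) under low stretch. It fell 1.45-fold with no overlap (log2 −0.54, SE 0.11, edgeR adjusted p = 0.0172) and was called in 8 of 9 fits without 1 sample. Under high stretch it measured 22.9, 34.2 and 25.8 CPM against 51.9, 58.7 and 33.8 CPM unstretched (log2 −0.78, SE 0.25, adjusted p = 0.166). These groups met through unstretched replicate 3.

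Plxna1, the receptor that Sema3a reaches through Nrp1, measured 535, 568 and 490 CPM unstretched and 494 to 667 CPM (median 589) under low stretch, with overlap (log2 0.13, SE 0.11, edgeR adjusted p = 0.483). In experiment 2 it measured 695, 743 and 632 CPM unstretched and 1053, 985 and 1105 CPM under high stretch, which did not overlap (log2 0.62, SE 0.17, adjusted p = 0.0971). Plxnd1, the receptor of Sema3e, measured 89.6, 84.1 and 69.5 CPM unstretched and 92.5 to 116 CPM under low stretch (log2 0.37, SE 0.11, adjusted p = 0.0702). It exceeded the unstretched sample of its run in all 9 stretched samples, by 1.09 to 1.91 times under high stretch (log2 0.47, adjusted p = 0.364), and was called under low stretch with the plate run as a block (adjusted p = 0.000349). Plxna3 had the opposite sign under low stretch and was also called with that block (log2 −0.36, adjusted p = 0.00161). Plxna2 was not called in any of these fits, and Plxna4, Plxnb3 and Plxnc1 were at the edge of detection.

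Plexin domain-containing proteins are transmembrane proteins with a plexin-like repeat, known as receptors for pigment epithelium-derived factor, and Plxdc1 is also known as a marker of tumour endothelium. Plxdc1 fell in both comparisons, and its high-stretch fall was the largest on the log2 scale among the called members. It measured 6.36, 5.92 and 8.84 CPM unstretched and 1.37 to 4.69 CPM (median 2.27) under low stretch, and 18.4, 19.4 and 17.3 CPM unstretched and 1.82, 3.67 and 3.28 CPM under high stretch. The groups did not overlap in either experiment. Plxdc1 fell 2.71-fold under low stretch (log2 −1.44, SE 0.33, edgeR adjusted p = 0.0328) and 6.23-fold under high stretch (log2 −2.64, SE 0.29, adjusted p = 0.00592). The low-stretch call was kept in 3 of 9 fits without 1 sample, and the high-stretch call in 5 of 6. Plxdc2 measured 71.5, 57.9 and 79.2 CPM unstretched and 47.4 to 56.6 CPM (median 49.9) under low stretch, and fell 1.37-fold (log2 −0.45, SE 0.09, adjusted p = 0.0186, called in 7 of 9 fits without 1 sample). Under high stretch it measured 48.9, 37.0 and 45.0 CPM against 50.1, 43.5 and 72.2 CPM unstretched (log2 −0.33, SE 0.24, adjusted p = 0.674).

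**Figure D3:**
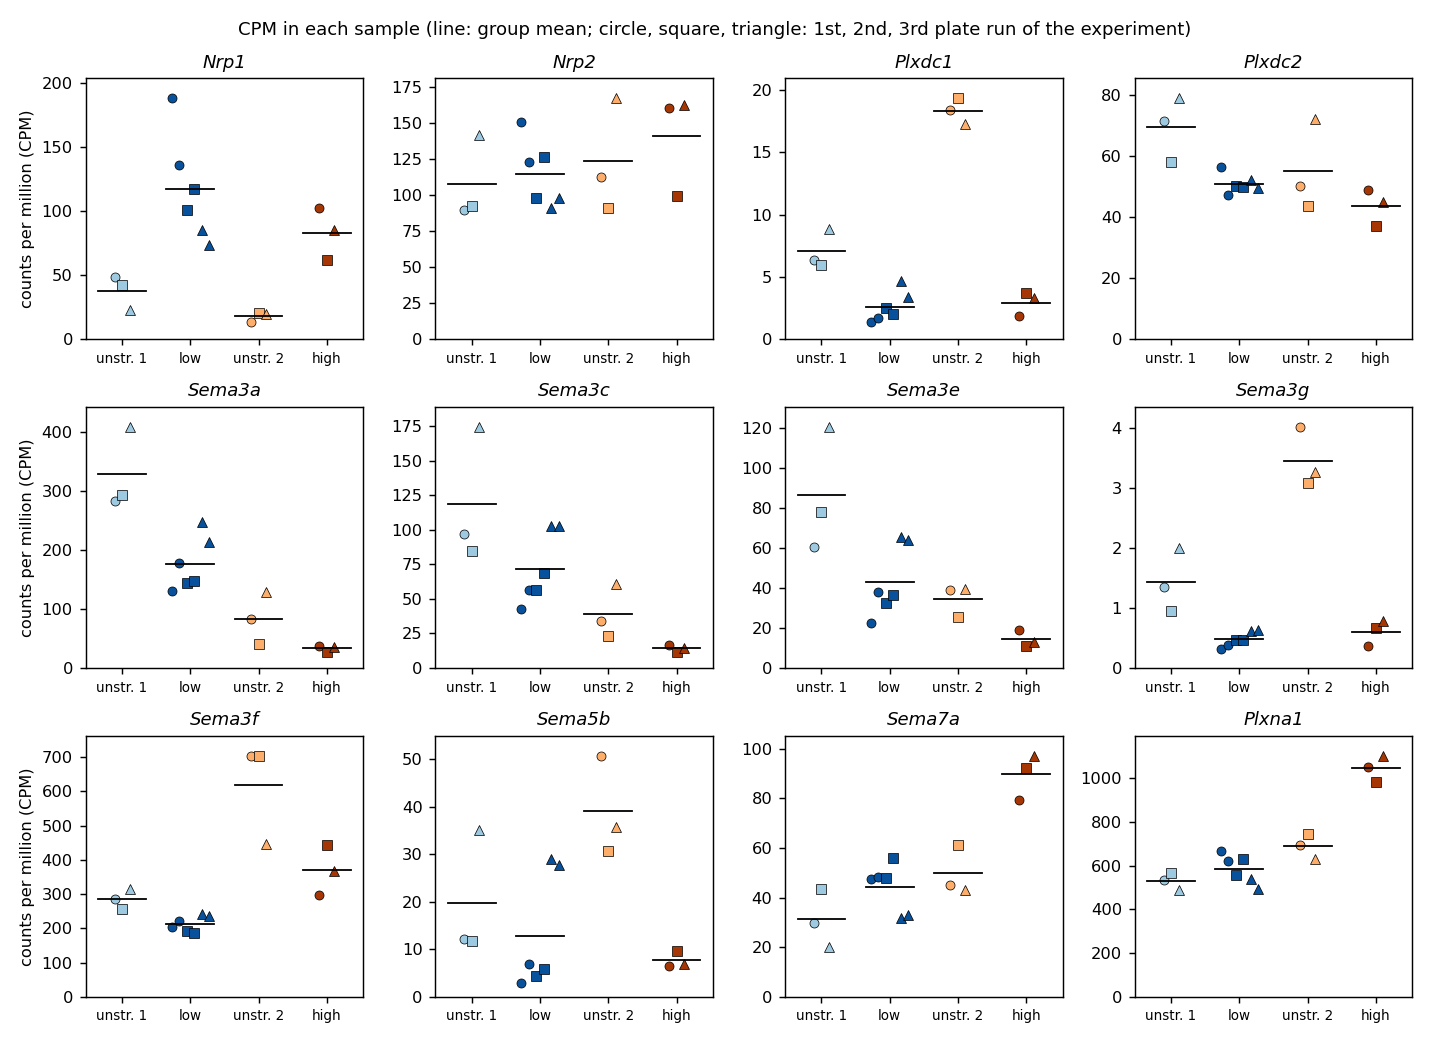
CPM of 12 members in each of the 15 samples, 1 panel a gene with its own axis from 0; each point is a sample, marker shapes give the plate run within its experiment, and bars are group means. Nrp1 is higher and Sema3g and Plxdc1 are lower in every stretched sample than in any unstretched sample of the same experiment.

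Within plate runs the direction was even over many members. Of the 28 members tested in both comparisons, 11 lay below the unstretched sample of their run in all 9 stretched samples (12.4% of all genes tested in both): Sema3a, Sema3c, Sema3d, Sema3e, Sema3f, Sema3g, Sema4a, Sema5b, Plxdc1, Plxdc2 and Plxnb1. Nrp1, Sema7a and Plxnd1 lay above it in all 9 (10.8% of all genes). The other 14 members were mixed. As the runs are counted sample by sample, the 2 low-stretch samples of a run share 1 unstretched sample. In experiment 2 samples of a run did not deviate together throughout (correlations of −0.16 to 0.45), so its runs are not shown to pair the samples.

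**Figure D4:**
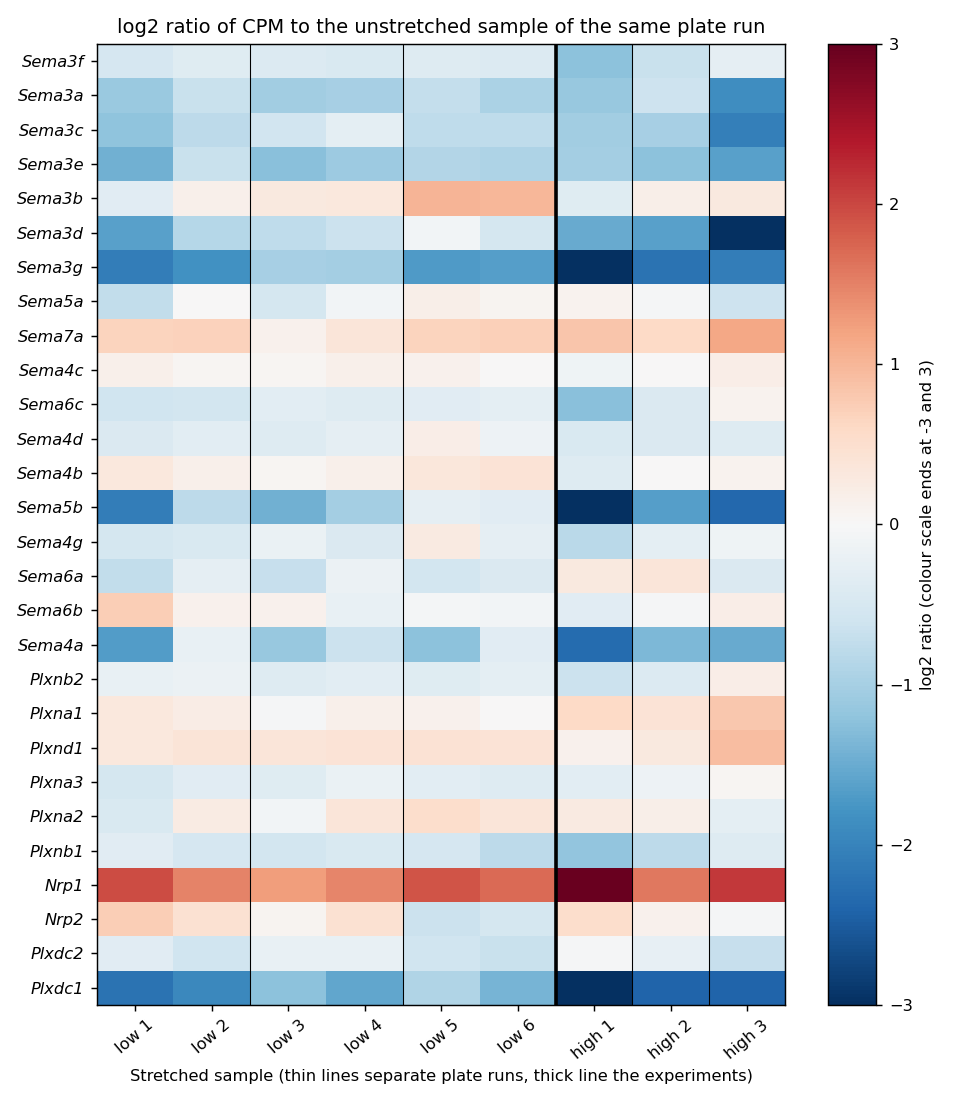
Log2 ratio of each stretched sample to the unstretched sample of its plate run for the 28 members tested in both comparisons; rows are genes, columns the 6 low-stretch and 3 high-stretch samples, and the colour scale ends at −3 and 3, where larger ratios are drawn in the end colour. Nrp1 is positive across its row, and the rows of Sema3a to Sema3g other than Sema3b are negative throughout.

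Whether amplitude changed the response was tested as the difference between both stretch effects. Estimates had the same sign in both comparisons for 25 of the 28 members, the exceptions being Sema4b, Sema6a and Sema6b, and the estimate was larger in size under high stretch for 19. The shares over all genes were not taken for these counts, so they are not read as traits of the members. The difference itself was called by edgeR for 0 of 32 members and 0 of 22015 genes (5 members and 547 genes had an unadjusted p under 0.05), and by DESeq2 for 0 members. For Nrp1 the high-stretch effect exceeded the low-stretch effect by 0.60 on the log2 scale (95% interval −0.32 to 1.52, adjusted p = 1). The members with an unadjusted p under 0.05 were Sema4f, Plxna1 (difference 0.46, interval 0.09 to 0.84), Sema3d (−1.63, −2.95 to −0.30), Plxdc1 (−1.22, −2.27 to −0.17) and Sema3g (−0.94, −1.85 to −0.04). Amplitude and experiment cannot be told apart in this difference.

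The unstretched cells of the experiments themselves differed. Between them 19 of 29 members were called by edgeR (12 higher and 7 lower in experiment 2), against 62.5% of all genes (29.7% higher, 32.7% lower), a share near the background. The chromosome 5 ligands were lower in experiment 2: Sema3a 3.98-fold (adjusted p = 0.00545), Sema3d 3.33-fold (0.0101), Sema3c 3.06-fold (0.00893) and Sema3e 2.52-fold (0.00611). Nrp1 was 2.16-fold lower there (adjusted p = 0.0139). Sema3f was 2.14-fold higher (0.00563), Plxdc1 2.58-fold (0.00533), Sema3g 2.39-fold (0.00857) and Plxnb1 2.41-fold (0.00539). The ratio of Sema3a to Sema3f on the TPM scale was 0.551 to 0.696 in unstretched cells of experiment 1 and 0.0380 to 0.176 in those of experiment 2. Sema3g and Plxdc1, called lower under both amplitudes, thus stood at higher unstretched levels in experiment 2, and Nrp1 at a lower one.

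Other genes of the pathway were taken from lists of the partners and effectors. Of the vascular endothelial growth factor ligands and receptors that pair with neuropilins, 0 of 6 tested were called in either comparison by edgeR. DESeq2 called 0 under low and 2 under high stretch, against 11.4% and 6.03% of all genes. An unadjusted edgeR p was under 0.05 for 0 and 3, against 5104 of 21672 and 2705 of 18524 genes. Those 3 under high stretch were Flt1 (log2 1.98, adjusted p = 0.0982), Vegfd (log2 −1.14, adjusted p = 0.0606) and Pgf (log2 0.96, adjusted p = 0.312). Vegfa measured 16.4 to 22.2 CPM unstretched and 15.3 to 21.6 CPM under low stretch (log2 −0.09, adjusted p = 0.719), and 12.5 to 15.2 CPM unstretched and 16.6 to 17.1 CPM under high stretch (log2 0.31, adjusted p = 0.550). The endothelial receptor Kdr stayed at or under 0.0296 CPM. Of the semaphorin co-receptors and further receptors, edgeR called 1 of 12 tested under low stretch (5.45% of all genes). Under high stretch it called 1 of 10 (3.47% of all genes). An unadjusted p was under 0.05 for 5 of the 12 and 2 of the 10, against 5104 of 21672 and 2705 of 18524 genes. DESeq2 called 4 under low and 1 under high stretch, against 11.4% and 6.03% of all genes. With the plate run as a block 2 were higher and 4 lower under low stretch, against 13.7% and 14.5% of all genes. The adhesion molecule Nrcam fell under low stretch, from a mean of 0.128 to 0.0441 CPM (log2 −1.52, adjusted p = 0.0230). Itga1, the collagen-binding integrin subunit that Sema7a engages, fell under high stretch, from 95.6 to 25.8 CPM (log2 −1.88, adjusted p = 0.0266).

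Downstream of the plexins, 2 of 19 GTPases and regulators rose under low stretch: Farp1, an exchange factor that binds A-type plexins (log2 0.40, adjusted p = 0.0117), and the Ras-family protein Mras (log2 0.29, adjusted p = 0.0380), against 1.85% of all genes called higher. There 11 of the 19 had an unadjusted p under 0.05, against 5104 of 21672 genes, and DESeq2 called 3, against 11.4%. With the plate run as a block 9 were higher and 2 lower under low stretch, where 28.2% of all genes were called. Under high stretch 0 of the 19 were called by edgeR (3 with an unadjusted p under 0.05) and 0 by DESeq2. Of 21 cytoskeletal and kinase effectors tested, the kinase Fyn rose in both comparisons, from 54.6 to 89.6 CPM under low stretch (log2 0.71, adjusted p = 0.010) and from 56.0 to 104 CPM under high stretch (log2 0.91, adjusted p = 0.0313). Dpysl3, a collapsin response mediator, rose under high stretch from 43.5 to 153 CPM (log2 1.83, adjusted p = 0.0116), where the actin-oxidising enzyme gene Mical2 rose too (log2 0.85, adjusted p = 0.0412). Its relative Mical3 fell under low stretch (log2 −0.46, adjusted p = 0.0275). In all, edgeR called 2 of the 21 effectors under low stretch, against 5.45% of all genes, and 3 under high stretch, against 3.47%. Unadjusted p was under 0.05 for 10 and 7, against 5104 of 21672 and 2705 of 18524 genes. DESeq2 called 5 in each comparison, against 11.4% and 6.03% of all genes. Under low stretch 9 were higher and 1 lower when the plate run was a block, against 13.7% and 14.5% of all genes. Scaffolds and proteases of the pathway had 0 of 7 called in either comparison by edgeR or DESeq2 (2 under low stretch and 0 under high stretch had an unadjusted p under 0.05).

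Transcript shares of the members were tested because the series was made to study splicing. On log ratios of TPM with limma, 0 of 59 member transcripts of 17 genes were called under low stretch (6 with an unadjusted p under 0.05), against 4 of 27672 transcripts in all (0.0145%). Under high stretch 0 of 63 member transcripts of 20 genes were called (9 with an unadjusted p under 0.05), against 0 of 23374. The lowest p under low stretch belonged to Sema4c-203, which made up 10.5% ± 1.61 (SD, n = 6) of Sema4c TPM against 6.17% ± 0.588 (SD, n = 3) unstretched, with a limma adjusted p of 0.176. Sema6c-211 and Sema4b-201 followed with adjusted p of 0.407 and 0.451. Under high stretch Sema4b-204 made up 58.7% ± 2.64 against 46.2% ± 0.893 (SD, n = 3 each, limma adjusted p = 0.279), and Sema4b-201 the counterpart, 40.7% against 53.1%. Plxdc1-201 made up 92.3% against 97.1% (adjusted p = 0.293).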

How the data were processed

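The authors deposited raw gene counts (whole numbers per Ensembl gene) and transcript TPM. Per the submitters' processing notes the tools were STAR 2.7.5c, featureCounts from Subread 2.0.0, DESeq2 1.38.3 and Salmon 1.9.0 with the mm39 build, and the strand setting of the counting is not given in the sources used here. Symbols came from GENCODE M21, which matched 52135 of 55416 genes, and unmatched genes held at most 0.181% of a sample's counts. CPM used TMM factors over all 15 samples. Each comparison was fitted on the count table of all genes with edgeR 4.0.16 (TMM, filterByExpr, quasi-likelihood test, Benjamini-Hochberg, threshold 0.05) in R 4.3.3, and SE is the log2 fold change divided by the square root of F. Transcript usage was fitted with limma 3.58.1 on log2 ratios of a transcript to the rest of its gene, with a pseudocount of 0.1 TPM, a gene mean of at least 1 TPM and a mean fraction of 0.05 to 0.95. DESeq2 1.42.0, other filters and scalings, plate run and replicate blocks and leaving out each sample were the alternatives. Scripts were tested on simulated data. The members, pathway lists and markers were chosen with earlier results of these data known. Text names the members called in either stretch comparison with or without the plate run block, the 3 most abundant of each role, 9 listed genes, called genes of the pathway lists and the 3 usage results of lowest p. Exons of Nrp1, Plxna1, Plxna4, Plxnb1, Plxnc1, Sema4a and Sema4c overlap another annotated gene. All 15 libraries differed from each other, with 0 identical pairs.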

Additional observations from a re-analysis of the deposited data

How the results depend on the processing

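The count of called members depended on the samples used. Leaving out 1 sample gave 0 to 11 members under low stretch (9 with all samples; 0.998 to 7.57% of all genes), 0 to 13 under high stretch (5; 0.0755 to 7.77%), 14 to 23 between the unstretched groups (19; 44.1 to 73.0%) and 0 for the difference between stretch effects. Fitting all 15 samples together gave 3 under low and 12 under high stretch (2.91% and 6.76% of all genes). DESeq2 gave 12 under low and 12 under high stretch (11.4% and 6.03%), no filter on low counts gave 7 and 11 (2.85% and 3.21%), and RLE size factors gave 9 and 5 (5.43% and 3.48%). A mean count of at least 100 left 27 members tested in each comparison and gave 9 and 5 (6.91% and 3.00%). Of those 5 under high stretch, 2 were higher and 3 lower, where the main fit had 1 and 4. With a replicate block, the counts were 6 under low stretch, 12 under high stretch (3 higher, 9 lower) and 22 between the unstretched groups, against 2.30%, 8.35% and 63.5% of all genes. With the plate run as a block there were 18 under low stretch, and the 12 under high stretch are the same fit, since run and replicate number coincide in experiment 2. Those 12 are Nrp1, Sema7a and Sema4f higher, and Sema3a, Sema3c, Sema3d, Sema3e, Sema3g, Sema4a, Sema5b, Plxdc1 and Plxnb1 lower. Of these, Sema4f passed the filter only through its high-stretch samples, so it had to differ there to be tested at all. Same-numbered samples did not deviate together throughout (correlations of -0.44 to 0.36 in experiment 1 and -0.16 to 0.45 in experiment 2), so the numbers do not pair the samples. A pseudocount of 1 TPM gave 1 member transcript under high stretch (0 otherwise), Plxdc1-201, in a gene whose mean was 1.27 TPM stretched and 8.60 TPM unstretched.

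In comparisons where they were not called, the log2 estimates of 7 members changed sign at least once. Without 1 sample, the low-stretch estimate ran from -0.037 to 0.32 for Nrp2, from -1.04 to 0.078 for Sema5b and from -0.071 to 0.38 for Sema6b, and the high-stretch estimate from -0.20 to 0.43 for Plxna2, -0.10 to 0.24 for Sema3b, -0.32 to 0.070 for Sema5a, -0.31 to 0.32 for Sema6a and -0.15 to 0.13 for Sema6b. Plxna2 was also -0.16 under low stretch with the replicate block and -0.00055 under high stretch with all 15 samples together, and Sema6b was 0.0022 under high stretch with no filter on low counts. The cause was not tested. No member changed sign in a comparison that called it, under the alternatives run. Depth limits Sema4f, Plxna4, Plxnb3, Plxnc1 and Sema6d, whose group means were under 0.3 CPM.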
